A study of Homo sapiens with 4 samples.

Results

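mTOR is a serine/threonine kinase that works in a pair of complexes, mTORC1, which holds Raptor, and mTORC2, which holds Rictor. The small GTPase Rheb switches mTORC1 on, and the TSC complex of TSC1 and Tuberin (TSC2) keeps Rheb inactive until growth factor kinases such as Akt phosphorylate Tuberin. Active mTORC1 phosphorylates p70-S6 kinase at T389, and p70-S6 kinase in turn phosphorylates ribosomal protein S6 in its C-terminal tail, so phosphorylated S6 is widely used as a readout of this pathway, which is often overactive in glioblastoma.

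The proteins followed here were chosen with earlier results of these data known. Every row of the RPPA table for mTOR, Raptor, Rictor, TSC1, Tuberin, Rheb, p70-S6 kinase and S6 was taken by name, regardless of its values. This gave 14 of 440 antibodies, 8 to total proteins and 6 to phosphorylated sites, for the products of 8 genes (MTOR, RPTOR, RICTOR, TSC1, TSC2, RHEB, RPS6KB1 and RPS6). RPPA, the reverse phase protein array, prints cell lysates on slides and probes each slide with one antibody. LN229, an established human glioblastoma cell line, was left untreated (2 samples, labelled as time 0 min) or given 300 nM salmon calcitonin (sCT), a peptide agonist of the calcitonin receptor, for 60 min (2 samples), and the samples are described as biological duplicates of 1 cell line. The series holds no control harvested after 60 min without sCT, so treatment and time in culture cannot be told apart. Values are linear relative levels with a median of about 1 in each sample, so that an antibody can be followed from sample to sample but its level cannot be set against another antibody's. For that reason neither the identity of the cells nor the abundance of one protein against another was read from them, and a level near background cannot be recognised.

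After sCT, phosphorylated S6 was far lower while total S6 and p70-S6 kinase phosphorylated at T389 were close to their untreated levels. mTOR, Rictor, TSC1 and Tuberin were lower as total proteins, and Raptor and Rheb did not pass the test. In limma, with Benjamini-Hochberg adjustment over the whole panel, 8 of the 14 antibodies fell at an adjusted p of 0.05, 0 rose and 6 did not pass. Over all 440 antibodies 55.0% were called, 33.6% lower and 21.4% higher. Among antibodies to sites, 4 of these 6 fell, against 47.7% of the 88 sites of the panel, and among antibodies to total proteins 4 of these 8 fell, against 30.1% of 352. The median log2 fold change was -0.33 for the 14 antibodies and 0.02 for the panel. The untreated and sCT-treated samples did not overlap for 11 of the 14, where 85.9% of the panel did not. At an unadjusted p of 0.05 with a log2 fold change of at least 0.58 in either direction, the thresholds of the study's heatmap, 4 of the 14 passed, all lower (Rictor, Tuberin and both S6 sites), against 21.6% of the panel. With the unequal-variance test of the study's supplement, run on linear levels, 6 of the 14 had an unadjusted p under 0.05 and 0 passed after adjustment, against 155 and 1 of the 440 antibodies. All adjusted p-values below are from limma.

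**Figure D1:**
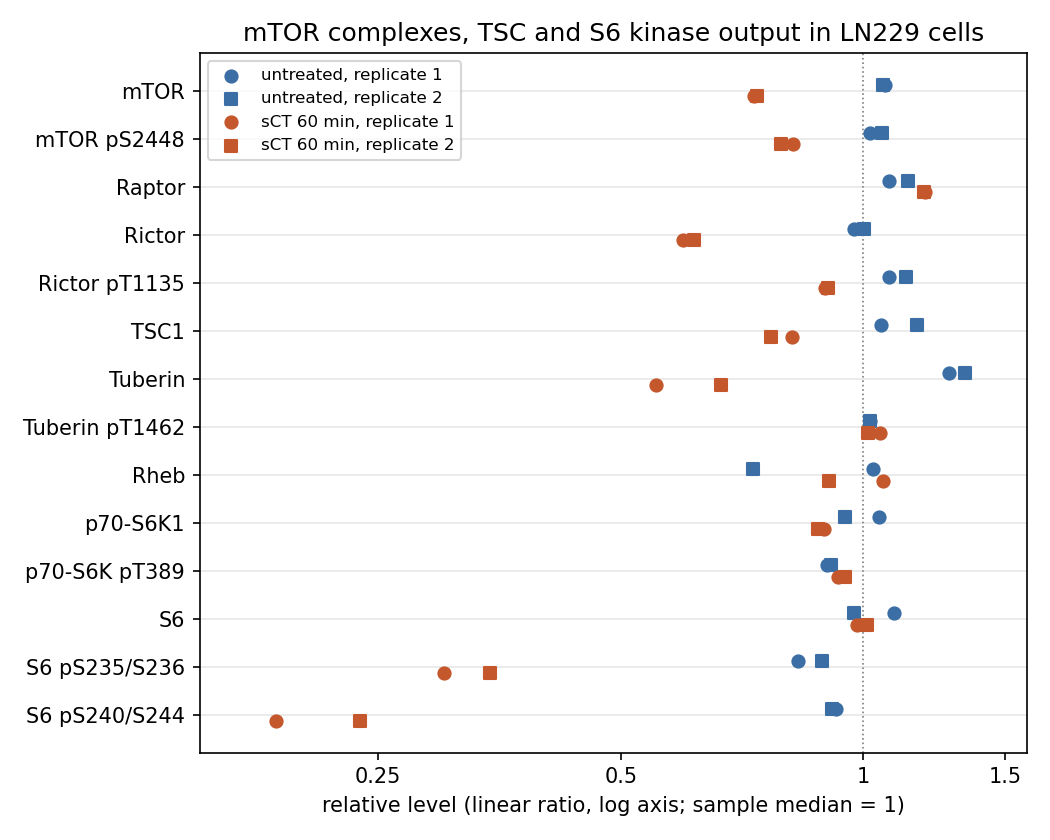
Relative level of each antibody (linear ratio on a log axis, sample median 1) in the 2 untreated samples (blue) and the 2 samples treated with sCT for 60 min (orange), with circles for replicate 1 and squares for replicate 2. The sCT-treated samples lie at 0.186 and 0.237 for S6 pS240/S244 and at 0.302 and 0.344 for S6 pS235/S236, far to the left of the untreated samples, while total S6, p70-S6K pT389 and Tuberin pT1462 stay near 1.

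Ribosomal protein S6 is a component of the small ribosomal subunit. Its level phosphorylated at S240/S244 (S6_pS240_S244), a site pair attributed to the S6 kinases, was 0.924 and 0.915 in the untreated samples and 0.186 and 0.237 in the sCT-treated samples. The untreated samples were nearly equal, and both treated samples were far below them. The level fell by 2.13 on the log2 scale (SE 0.12, adjusted p = 0.000294), to 22.9% of the untreated level. This was rank 4 among the falls of the 440 antibodies and rank 2 among those of the 88 sites. Leaving out each sample in turn gave log2 fold changes from -2.30 to -1.96, with adjusted p from 0.00187 to 0.00690.

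The second S6 antibody reads S235/S236, a pair that p90 ribosomal S6 kinase (RSK) and protein kinase A can phosphorylate in addition to p70-S6 kinase. Its level was 0.831 and 0.890 in untreated cells and 0.302 and 0.344 after sCT. The groups were well apart here too, and the level fell by 1.42 on the log2 scale (SE 0.08, adjusted p = 0.000303), to 37.5% of the untreated level. Quantile normalization took this fall to -0.51 and ended the call (adjusted p = 0.0856), whereas S6 pS240/S244 kept its call at -1.20 (adjusted p = 0.00168).

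Total S6 was 1.09 and 0.975 in untreated cells and 0.984 and 1.01 after sCT. The treated samples lay within the range of the untreated ones, and the log2 fold change was -0.05 (95% CI of the fit -0.23 to 0.14, adjusted p = 0.572). Its sign turned without untreated replicate 1, to 0.03. The bounds of this interval are much nearer to 0 than the changes of both S6 sites.

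Set against total S6 within each sample, the log2 difference of S6 pS240/S244 was -0.24 and -0.09 in untreated cells and -2.40 and -2.09 after sCT, a change of -2.08 that was -1.15 after quantile normalization. For S6 pS235/S236 minus total S6 the differences were -0.40 and -0.13 in untreated cells and -1.71 and -1.56 after sCT, a change of -1.37 that was -0.46 after quantile normalization. Neither set of values overlapped between the groups, as was so for every difference of this kind compared here. The antibody to S240/S244 was also lower relative to the one to S235/S236 (this pair was picked with its values in view). That difference was 0.15 and 0.04 in untreated cells and -0.69 and -0.54 after sCT, a change of -0.71, which was -0.69 after quantile normalization. Across 7 such differences, 6 of them of a site and its total protein, the exact two-sided permutation test gave p = 0.333 each (adjusted p = 0.333), the smallest that 2 samples against 2 allow, so these changes are descriptions beside the fit across the panel.

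**Figure D2:**
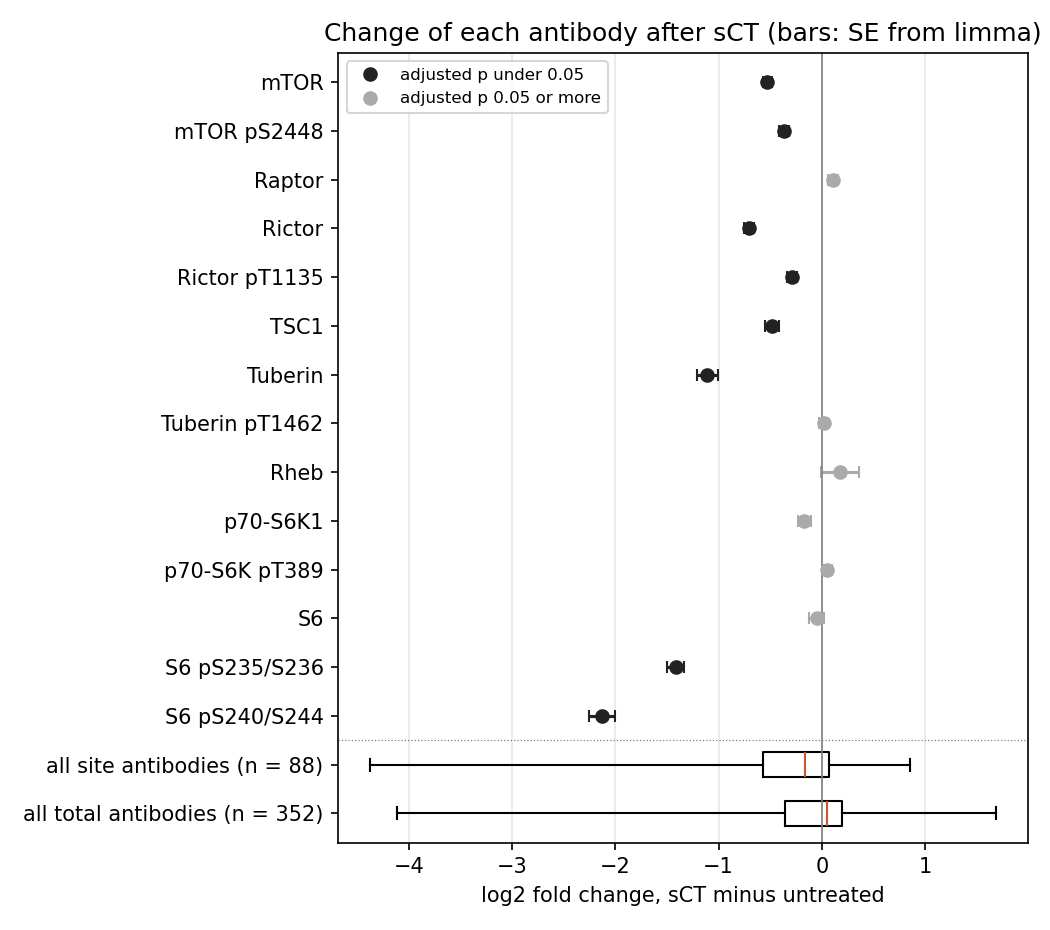
Log2 fold change (sCT minus untreated) of the 14 antibodies with the standard error from limma, in black where the adjusted p was under 0.05 and in grey elsewhere. The boxes give the median and quartiles, with whiskers to the extremes, of all 88 site and all 352 total-protein antibodies. Both S6 sites lie below the lower quartile of the sites, at -2.13 and -1.42, and p70-S6K pT389 lies next to 0.

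p70-S6 kinase, the product of RPS6KB1, gave no call for either antibody. Its site T389, which mTORC1 phosphorylates, had levels of 0.902 and 0.913 in untreated cells and 0.932 and 0.950 after sCT. Both treated samples were slightly above both untreated ones, with a log2 fold change of 0.05 (95% CI -0.06 to 0.17, adjusted p = 0.330) that was 0.19 after quantile normalization (adjusted p = 0.0922). The interval leaves out a fall of the size seen at either S6 site, although whether the signal of this antibody stood above background is unknown. Total p70-S6K1 was 1.05 and 0.948 in untreated cells and 0.894 and 0.879 after sCT, a log2 fold change of -0.17 (95% CI -0.34 to -0.00091, adjusted p = 0.0790). It passed the threshold without untreated replicate 2 (-0.24, adjusted p = 0.0417) and with relative loading control centring, described next (-0.33, adjusted p = 0.0124). The difference of pT389 and total p70-S6K1 within a sample went from a mean of -0.14 ± 0.11 (SD, n = 2) to 0.09 ± 0.04 (SD, n = 2), a change of 0.22 that was 0.14 without untreated replicate 1.

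The 6 loading control antibodies of the panel (GAPDH, beta-actin, vinculin, cyclophilin F, COX IV and porin) bear on how small changes are read. Their log2 fold changes were all above 0, from 0.04 to 0.57, and 3 of the 6 rose. Centring each sample on these 6, each relative to its own mean, shifted the panel's median by -0.17 (log2) and changed its calls from 148 lower and 94 higher to 201 lower and 35 higher. With it p70-S6K pT389 was at -0.11 (adjusted p = 0.115) and total S6 at -0.21 (adjusted p = 0.0694), against -2.30 for S6 pS240/S244 and -1.58 for S6 pS235/S236. A centring moves every antibody by the same amount, so the distance between the S6 sites and pT389 was the same under it, while the small pT389 value changed sign.

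mTOR itself was lower. Total mTOR was 1.07 and 1.06 in untreated cells and 0.732 and 0.739 after sCT, with replicates almost equal in both groups. It fell by 0.53 on the log2 scale (SE 0.04, adjusted p = 0.000702), to 69.3% of the untreated level. mTOR phosphorylated at S2448, a site that p70-S6 kinase can phosphorylate, was 1.02 and 1.06 in untreated cells and 0.818 and 0.790 after sCT. It fell by 0.37 on the log2 scale (SE 0.05, adjusted p = 0.00332), less than total mTOR. Relative to total mTOR within a sample the site was therefore slightly higher after sCT, by 0.16 log2 units.

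Rictor and Raptor, the subunits that define the mTOR complexes, lay on opposite sides of 0. Rictor, the mTORC2 scaffold, was 0.975 and 1.003 in untreated cells and 0.597 and 0.616 after sCT. Both treated samples were well below both untreated samples, a change of -0.71 on the log2 scale (SE 0.05, adjusted p = 0.000419) to 61.3%, which was -0.44 after quantile normalization (adjusted p = 0.00564). Raptor, the substrate-binding subunit of mTORC1, was 1.08 and 1.14 in untreated cells and 1.20 and 1.19 after sCT, a log2 fold change of 0.11 (95% CI -0.02 to 0.24, adjusted p = 0.118) that became -0.06 with relative loading control centring (adjusted p = 0.412). Rictor phosphorylated at T1135, another site attributed to p70-S6 kinase, was 1.08 and 1.13 in untreated cells and 0.897 and 0.904 after sCT. It fell by 0.29 on the log2 scale (SE 0.05, adjusted p = 0.00689) and by 0.46 with relative loading control centring, and lost its call without either sCT replicate (adjusted p = 0.0578 without replicate 1 and 0.0503 without replicate 2). The site minus total Rictor was 0.14 and 0.17 in untreated cells and 0.59 and 0.55 after sCT, higher by 0.41, or by 0.19 after quantile normalization.

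The inhibitors upstream of mTORC1 were lower as well. Tuberin, the GTPase-activating subunit of the TSC complex, was 1.28 and 1.34 in untreated cells and 0.553 and 0.666 after sCT. It had the deepest fall of the 8 total-protein antibodies, by 1.11 on the log2 scale (SE 0.10, adjusted p = 0.00103), to 46.4%. TSC1, its partner that stabilises the complex, was 1.05 and 1.17 in untreated cells and 0.815 and 0.769 after sCT, and fell by 0.49 on the log2 scale (SE 0.07, adjusted p = 0.00462). Neither protein overlapped between the groups, as was so for 85.9% of the panel's antibodies.

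Tuberin phosphorylated at T1462, an inhibitory site targeted by Akt, was 1.02 in both untreated samples and 1.05 and 1.01 after sCT. The groups overlapped, with a log2 fold change of 0.02 (95% CI -0.10 to 0.14, adjusted p = 0.754), which was -0.15 with relative loading control centring (adjusted p = 0.0514) and -0.0083 without sCT replicate 1. Relative to total Tuberin the site was at -0.33 and -0.39 in untreated cells and at 0.93 and 0.61 after sCT, a change of 1.13 and the largest upward change among the site and total pairs. Rheb had the widest replicate spread of the 14 antibodies, with levels of 1.03 and 0.730 in untreated cells and 1.06 and 0.907 after sCT. The groups overlapped, and the log2 fold change of 0.18 (95% CI -0.31 to 0.67, adjusted p = 0.438) turned to -0.07 without untreated replicate 2.

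**Figure D3:**
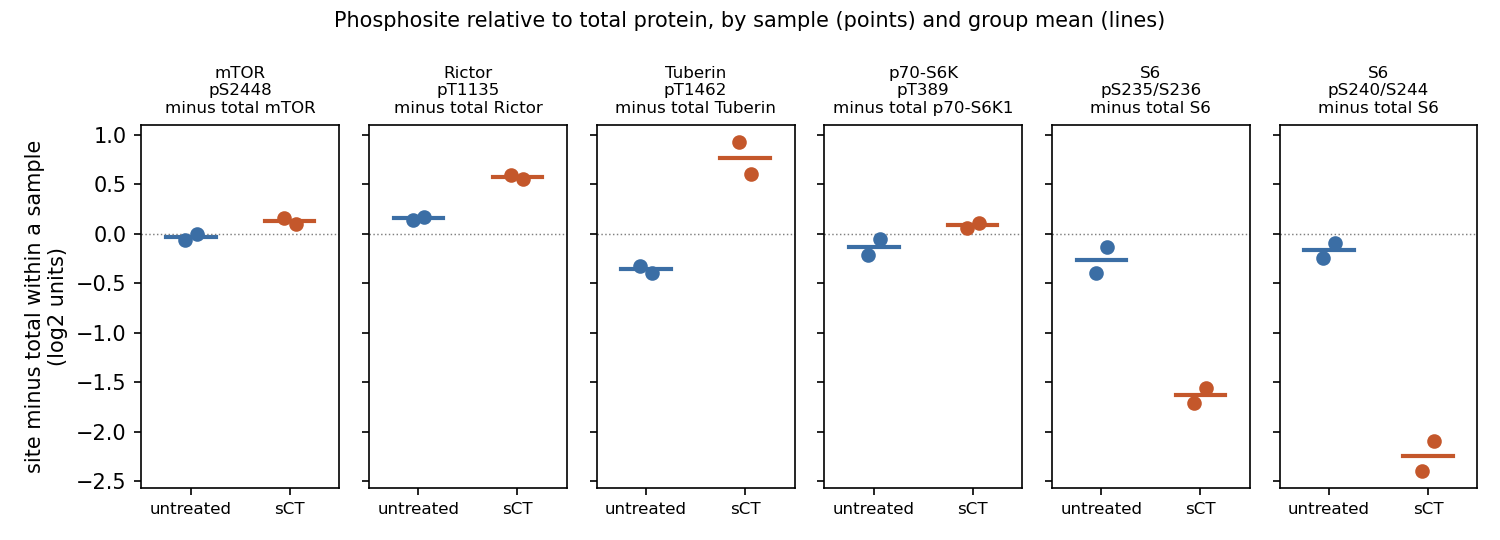
Log2 level of each phosphosite minus that of the total protein in the same sample (points), with the group mean (line), for untreated (blue) and sCT-treated (orange) cells. The S6 sites changed by -1.37 and -2.08 relative to total S6, whereas the sites on mTOR, Rictor, Tuberin and p70-S6 kinase were higher relative to their totals by 0.16 to 1.13.

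mTOR, Rictor and Tuberin are very large proteins. Of 25 antibodies to other very large proteins of the panel, a list written from general knowledge after the values were seen, 13 fell (30.1% of all total-protein antibodies did) and 2 rose, with a median log2 fold change of -0.36, against 0.05 over those 352. The part of protein size in the falls of mTOR, Rictor and Tuberin was not tested. Of the other total-protein antibodies of the set, TSC1 fell. Raptor, also a large protein, did not pass the test (0.11, adjusted p = 0.118), nor did Rheb, p70-S6K1 and S6. The list had no stated cut-off in size, so these groups are not a contrast by size.

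The rest of the pathway was read from 33 antibodies listed by function, with earlier results of these data known. Of these 33, 17 fell, 5 rose and 11 did not pass, where 33.6% of the panel fell and 21.4% rose. The median log2 fold change was -0.22, against 0.02 for the panel. Antibodies to sites made up 13 of the list, of which 10 fell and 0 rose, where 47.7% of all sites fell. The 20 antibodies to total proteins divided into 7 that fell, 5 that rose and 8 that did not pass, close to the panel's totals, of which 30.1% fell and 24.1% rose. The split was 21 lower and 1 higher with relative loading control centring and 12 lower and 6 higher after quantile normalization. Without sCT replicate 1, 12 of the 33 and 148 of the 440 passed, and without sCT replicate 2, 13 and 158.

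Among the outputs of mTORC1 other than p70-S6 kinase, 3 of 3 antibodies fell, where 33.6% of the panel did. They were the sites of ULK1 and 4E-BP1 and total 4E-BP1, which gives the amount of a substrate and not its phosphorylation. Of the whole panel, 47.7% of sites and 30.1% of total-protein antibodies fell. ULK1, the kinase that starts autophagy and that mTORC1 restrains by phosphorylation at S757, had levels at S757 of 0.946 and 0.965 in untreated cells and 0.517 and 0.541 after sCT. This was a change of -0.85 on the log2 scale (SE 0.05, adjusted p = 0.000290), and of -0.51 after quantile normalization (adjusted p = 0.00546). Total ULK1 was not read here, so site and protein cannot be told apart in this change. Phosphorylated 4E-BP1, the translation repressor that mTORC1 inactivates, went from 0.970 and 1.04 to 0.856 in both treated samples at T37/T46, a change of -0.23 log2 units (adjusted p = 0.0213) that was -0.40 with relative loading control centring. Total 4E-BP1 fell by 0.34 (adjusted p = 0.00689), or by 0.18 after quantile normalization (adjusted p = 0.0486), and the difference between the falls of site and protein was not tested. The call of 4E-BP1 pT37/T46 was lost after quantile normalization (-0.16, adjusted p = 0.152) and without untreated replicate 2, sCT replicate 1 or sCT replicate 2, with adjusted p from 0.0679 to 0.107.

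Proteins that p70-S6 kinase acts on, or kinases that share S6 as a substrate, gave 3 falls among 5 antibodies, where 33.6% of the panel fell. PDCD4, a translation inhibitor marked for degradation after S6 kinase phosphorylates it, was 0.924 and 0.855 in untreated cells and 0.308 and 0.364 after sCT. It fell by 1.41 on the log2 scale (SE 0.10, adjusted p = 0.000486), with the groups far apart, and by 0.65 after quantile normalization (adjusted p = 0.00501). eEF2K, the kinase of elongation factor 2 that S6 kinase inhibits, fell by 0.51 log2 units (adjusted p = 0.00173). Its substrate eEF2 was at -0.04 (95% CI -0.52 to 0.45, adjusted p = 0.865). The untreated eEF2 levels were far apart, at 0.998 and 0.706, and the interval takes in a fall as large as that of eEF2K. RSK phosphorylated at T573 was 1.41 and 1.86 in untreated cells and 0.924 and 0.984 after sCT, a change of -0.76 log2 units (adjusted p = 0.0104) with total RSK at 0.09 (adjusted p = 0.161). The call of p90RSK pT573 was lost without either sCT replicate (adjusted p = 0.0788 without replicate 1 and 0.0605 without replicate 2).

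The PI3K and Akt inputs moved in both directions, with 7 of 17 antibodies lower and 4 higher, shares near those of the panel (33.6% and 21.4%). Akt phosphorylated at S473, the mTORC2 site, was 1.37 and 1.67 in untreated cells and 0.531 and 0.559 after sCT, a change of -1.47 on the log2 scale (SE 0.11, adjusted p = 0.000523). Akt phosphorylated at T308, the PDK1 site, was 1.32 and 1.53 in untreated cells and 0.676 and 0.706 after sCT, a change of -1.04 (SE 0.08, adjusted p = 0.000702). Both sites were lower in every treated sample than in either untreated sample, in a panel where 85.9% of antibodies did not overlap. Total Akt was at 0.03 (adjusted p = 0.590).

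The isoform antibodies gave different values. For Akt2 the site S474 was at -0.15 log2 units and did not pass (adjusted p = 0.0693), while the total protein changed more. Akt2 fell by 0.81 log2 units (adjusted p = 0.000486), and Akt1 rose by 0.19 (adjusted p = 0.0223), a rise that was 0.32 after quantile normalization (adjusted p = 0.00999) and whose call was lost with relative loading control centring (0.02, adjusted p = 0.761) and without untreated replicate 2, sCT replicate 1 or sCT replicate 2, with adjusted p from 0.0813 to 0.115. The separate Akt1 pS473 antibody, which overlaps in target with Akt pS473, fell by 0.67 (adjusted p = 0.0359), or by 0.41 without untreated replicate 2 (adjusted p = 0.0489). This was a call lost without either sCT replicate (adjusted p of 0.176 without replicate 1 and 0.114 without replicate 2), after quantile normalization (adjusted p = 0.0554) and on linear levels (adjusted p = 0.0603).

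Upstream of Akt, PDK1 phosphorylated at S241, its activation loop, fell by 0.57 log2 units (adjusted p = 0.00150), with total PDK1 at -0.10 (adjusted p = 0.152). IRS2, an adaptor of the insulin and IGF receptors, fell by 1.03 (adjusted p = 0.000868), from 0.864 and 0.942 to 0.412 and 0.474, a call lost after quantile normalization (-0.45, adjusted p = 0.0796). The PI3K catalytic subunit p110-alpha fell by 0.43 (adjusted p = 0.00174). INPP4b, a lipid phosphatase that opposes PI3K signalling, rose from 1.20 and 1.19 to 1.71 and 1.74, a difference of 0.53 log2 units (SE 0.04, adjusted p = 0.000729). The smaller rises of p110-beta, at 0.17 (adjusted p = 0.0387), and p85, the regulatory subunit, at 0.17 (adjusted p = 0.0295), were lost without any one of the 4 samples and with relative loading control centring (adjusted p = 0.993 and 0.943).

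Of the mTORC2 and AGC kinase outputs, 3 of 5 antibodies fell and 1 rose, where 33.6% of the panel fell and 21.4% rose. NDRG1 phosphorylated at T346, a site of the mTORC2-dependent kinase SGK1, was 1.21 and 1.84 in untreated cells and 0.620 and 0.686 after sCT. Total NDRG1 was not read here, so site and protein cannot be told apart in this level. The untreated samples were far apart, but both lay above the treated ones, and the level fell by 1.20 on the log2 scale (SE 0.21, adjusted p = 0.00819). This call was lost without either sCT replicate (adjusted p = 0.0683 without replicate 1 and 0.0512 without replicate 2). FOXO3, a transcription factor that Akt and SGK kinases restrain, fell by 1.74 as total protein (SE 0.06, adjusted p = 0.000141), from 0.821 and 0.858 to 0.240 and 0.263, and by 0.68 after quantile normalization (adjusted p = 0.0325). FoxO3a at S318/S321 fell by 0.22 (adjusted p = 0.0295) and by 0.38 with relative loading control centring, a call lost without any one of the 4 samples (adjusted p from 0.0591 to 0.143), with the replicate number as a block (adjusted p = 0.0637) and after quantile normalization (adjusted p = 0.0552). SGK3 rose by 0.24 (adjusted p = 0.0140), a call lost with relative loading control centring (adjusted p = 0.296) and without untreated replicate 1, sCT replicate 1 or sCT replicate 2.

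AMPK, the energy sensor that restrains mTORC1, was lower at its activating site T172, from 0.654 and 0.723 to 0.507 and 0.544. This change of -0.39 log2 units (adjusted p = 0.00982) turned to 0.58 after quantile normalization (adjusted p = 0.0347). It stayed a fall with median centring (-0.39) and with relative loading control centring (-0.56), so its direction rests on whether quantile normalization is used. The call was also lost without sCT replicate 1 (adjusted p = 0.0702). The 11 antibodies of the list that did not pass, PRAS40 and its Akt site T246 among them, had log2 fold changes between -0.17 and 0.16.

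**Figure D4:**
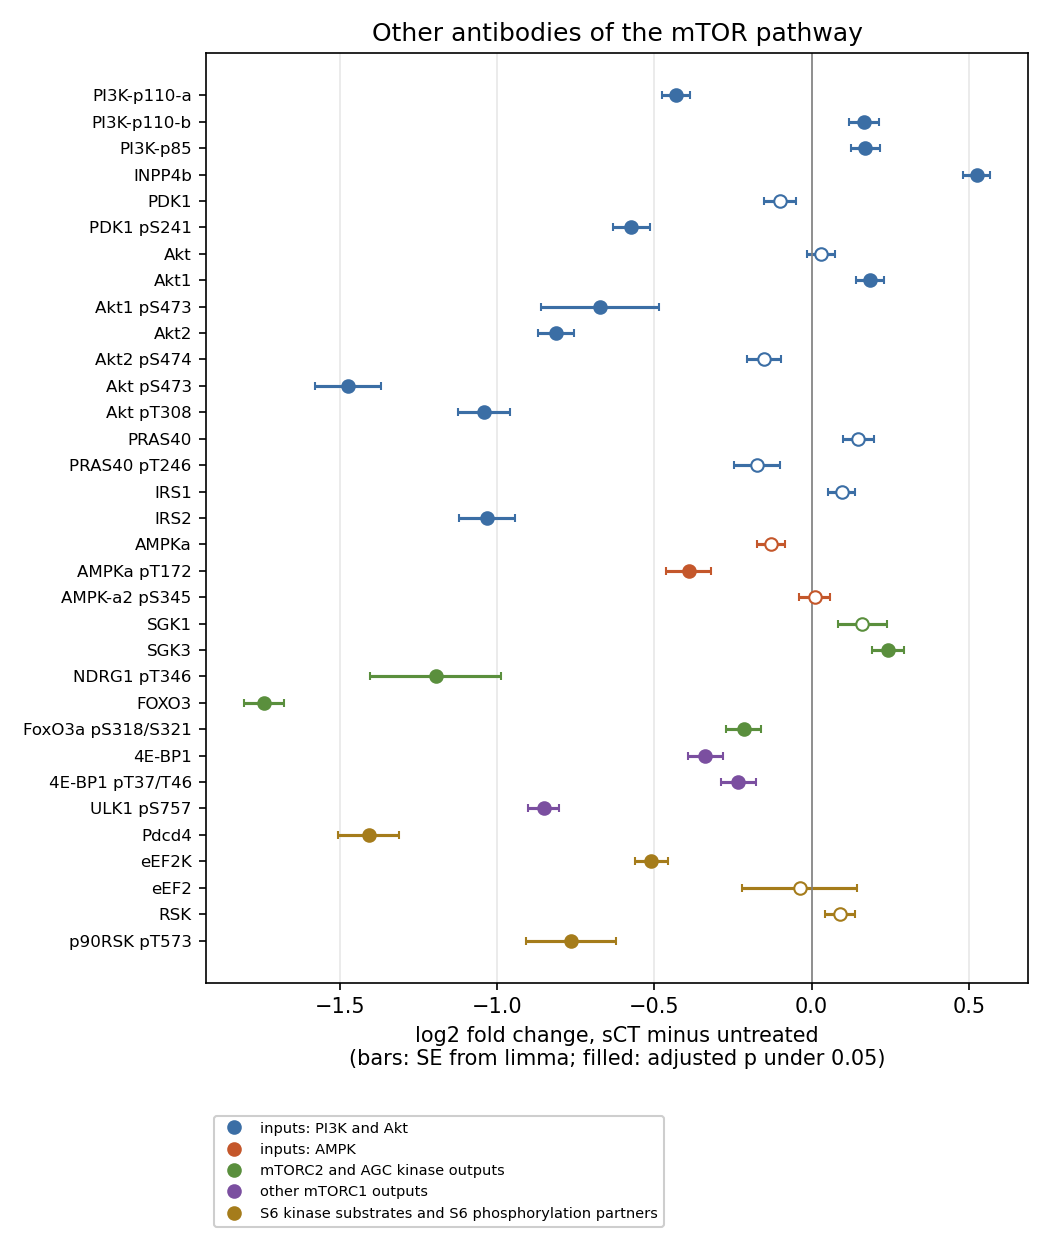
Log2 fold change (sCT minus untreated) with the standard error from limma for the 33 other antibodies of the pathway, coloured by role and filled where the adjusted p was under 0.05. Sites on Akt, ULK1, NDRG1 and RSK lie to the left of 0 with total FOXO3, PDCD4 and IRS2, while INPP4b lies furthest to the right, at 0.53.

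Over the 4 samples, of the antibodies reported here outside the mTOR, TSC and S6 kinase set, 5 had log2 profiles nearest to that of S6 pS240/S244, each taken relative to its untreated mean and measured by Euclidean distance. The nearest was CREB phosphorylated at S133, a transcription factor site of protein kinase A, at a distance of 0.207 log2 units. Total myosin IIa followed at 0.243, the mismatch repair protein MSH6 at 0.385, the RNA-binding protein RBM15 at 0.445 and the receptor EphA2 phosphorylated at S897 at 0.493. Myosin IIa and MSH6 were also on the list of very large proteins. The log2 fold changes of the 5 ran from -2.04 for CREB pS133 to -1.81 for EphA2 pS897. After quantile normalization those of myosin IIa, MSH6 and RBM15 were -0.97, -1.18 and -1.12. With 4 samples in 2 groups this likeness mostly reflects the size of the fall, and it is given as a description.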

How the data were processed

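RPPA was run on 2 untreated and 2 sCT-treated LN229 samples. Per the study's methods, dilution series of each lysate were arrayed, stained with DAB and quantified as spot intensities. The authors deposited linear ratios per antibody and sample, and the steps from intensity to ratio are not given in the sources used here. Spot intensities were not analysed, so signal over background is unknown, and 2 samples per group limit the precision.

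Levels were transformed to log2 with no pseudocount or filter. The 2 groups were then fitted antibody by antibody in limma 3.58.1 under R 4.3.3, by lmFit and eBayes without covariates (2 residual and 2.59 prior degrees of freedom, two-sided), with Benjamini-Hochberg adjustment over 440 antibodies. Differences between antibodies within a sample were compared with the exact permutation test. In 20 simulated panels of 440 antibodies for sCT against untreated, with 100 antibodies changed by 0.30 log2 units, a median of 66.0% was recovered. With changes of 0.80 it was 95.0%. The median number of false calls was 2 and 4.5. Noise was drawn independently and all changes of a panel had the same size, unlike these data, so the shares describe the method only. Text values cover every antibody of the set, those of the pathway list that were called, some of those that were not, and the 5 nearest profiles. The antibodies and lists were chosen with earlier results of these data known. No protein sequences were used. A few antibodies of the panel entered the fit but are not reported here.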

Additional observations from a re-analysis of the deposited data

How the results depend on the processing

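The alternatives were linear levels, median centring, quantile normalization, relative loading control centring, a trended and robust eBayes, a filter dropping the dimmest 10% of antibodies by mean level, leaving out each sample, the replicate number as a block, the unequal-variance test on linear levels, and an unadjusted p of 0.05 with a log2 fold change of 0.58. Of the 14 antibodies, 8 passed in limma, 7 to 9 with a sample left out and 8 with the replicate block. Of the panel's 440 antibodies, 242 passed in limma and 238 with the replicate block. The panel's count was lower than in the main fit with any one sample left out. Only 4 of the 14 passed the rule with 0.58 (21.6% of the panel). In the adjusted unequal-variance test 0 of the 14 passed, against 1 of the panel. There S6 pS240/S244 differed by -0.708 on the linear scale (adjusted p = 0.102). Of the 33 pathway antibodies, 22 passed, 12 to 19 with a sample left out, 23 with the replicate block, 10 by the rule with 0.58 and 0 in that test (14 at an unadjusted p under 0.05). For comparison, 55.0% of the panel passed in limma and 21.6% by the rule with 0.58. In the unequal-variance test 155 of the 440 antibodies had an unadjusted p under 0.05. Of 180 values over the 14 antibodies and these alternatives, 157 kept direction and side of the threshold, 15 lost the call, 2 gained it and 6 changed sign. The changes of sign were Raptor at -0.056, Tuberin pT1462 at -0.15 and p70-S6K pT389 at -0.11 with relative loading control centring, which moved the panel by -0.17, and, with a sample left out, Tuberin pT1462 (-0.0083 to 0.043), Rheb (-0.071 to 0.43) and total S6 (-0.13 to 0.034). AMPK pT172 turned to 0.58 after quantile normalization. The causes were not tested. The filter removed both S6 sites and so gave no value for them. Its mean takes in the treated samples, so an antibody that fell far can be removed although its untreated level is near the sample median. Removal is therefore no sign of a weak antibody signal. S6 pS240/S244, at 0.924 and 0.915 in untreated cells, was removed in this way. It also removed ULK1 pS757, PDCD4, FOXO3, IRS2 and AMPK pT172 of the pathway list. Of the nearest profiles it removed CREB pS133, myosin IIa, MSH6 and RBM15. With this filter 6 antibodies of the set, 17 of the pathway list and 203 of the panel passed. Of the panel, 110 were lower and 93 higher, against 148 and 94 without the filter. The differences within a sample cannot change under a centring. Quantile normalization and leaving out each sample, the other alternatives run on them, kept their signs but moved their sizes, for S6 pS235/S236 minus total S6 from -1.37 to -0.46 after quantile normalization. The filter, the linear scale and limma's settings were not run on them.

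The replicate numbers of the labels name samples and are not stated to mark a shared culture or day. Deviations from the group means correlated across antibodies with r = 0.586 between samples of the same number, which 2 pairs cannot settle. With the replicate block 143 antibodies of the panel were lower and 95 higher, against 148 and 94 without it.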
